A study of Mus musculus with 6 samples.

Results

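Genes of blood coagulation and fibrinolysis were compared in liver RNA between 3 PiZ mice and 3 wild-type mice, to see which of them differ when a misfolded liver protein is made. The 45 genes were a list of clotting factors, their inhibitors and receptors, the plasminogen system, the vitamin K cycle and related plasma proteins made in liver, and each was read from the brightest probe set that was annotated to that gene alone. Such a probe set was present for 42 of the 45 genes, out of 12393 genes measured in all. Cpb2, Vkorc1l1 and F2rl1 had no probe set of their own and were not analysed here. All mice were 6 weeks old and on a C57BL/6 background. PiZ mice are transgenic for human alpha-1 antitrypsin in its Z form, besides having their own genes for this protease inhibitor. The Z protein misfolds and is retained in the endoplasmic reticulum (ER) of hepatocytes. Wild-type mice lacked the transgene. The labels give neither the sex of the mice nor a treatment, and each array held the liver RNA of 1 biological replicate.

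Clotting factors are mostly made by hepatocytes and released into the blood as inactive precursors. The contact system (F12, Klkb1, Kng1 and F11) and tissue factor (F3) start chains of proteases that end in thrombin, which cuts fibrinogen to fibrin. Antithrombotic proteins such as protein C, protein S and the tissue factor pathway inhibitor hold these proteases back, and plasmin dissolves fibrin. Several factors need gamma-carboxylation by an enzyme that uses vitamin K, and factors V and VIII leave the ER with the help of a cargo receptor made of Lman1 and Mcfd2. Liver endothelial cells, not hepatocytes, are the main source of factor VIII, and von Willebrand factor is made by endothelial cells and platelet precursors of the body at large.

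All values are log2 intensities, given in the order of replicates 1, 2 and 3. Differences between the groups are log2 values fitted by limma, PiZ minus wild-type, with their standard errors (SE) and n = 3 arrays a group, and a gene passed when its p-value, adjusted over the 12393 genes by the Benjamini-Hochberg method, was below 0.05. The arrays were comparable in level, with medians between 6.12 and 6.18. They differed in the state of the RNA. Control probe sets read Gapdh and beta-actin near both transcript ends, and shortened RNA raises the 3′ signal over the 5′ signal. This log2 gap, averaged over both transcripts, was 2.20, 2.70 and 2.3 in the wild-type arrays. It was 2.5 in PiZ replicate 1, but 4.64 and 4.33 in PiZ replicates 2 and 3. PiZ replicate 1 is therefore given apart from the other PiZ arrays in several places. The hepatocyte markers Alb and Ttr read at least 14.63 on every array. Both lie near the top of the range of values, so they cannot show whether the hepatocyte content was equal. Of the 11 measured hepatocyte markers, given below, 10 had a difference below 0.

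Of the 42 measured genes, 17 fell and 3 rose in PiZ liver, and 22 did not pass. Over all genes 12.3% were lower and 11.3% higher by the same rule, 23.6% in all. A difference below 0, at any p, was seen for 30 of the 42 and for 41.2% of all genes. The median difference of the 42 genes was -0.44, against 0.08 over all genes. In 22 of the 42 every PiZ array lay below every wild-type array, and in 7 every PiZ array lay above, while 13 had overlapping groups. Over all genes these shares were 19.9% below and 24.9% above. In whole liver RNA, fewer cells of a type and less RNA per cell cannot be told apart.

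The falls lay among the strongly expressed plasma protein genes. Of 25 members with a mean of at least 10 over the 6 arrays, 15 fell, 0 rose and 21 had a difference below 0 (median -0.52). Among all 1462 genes at that level, 336 were lower and 231 higher, with a median of -0.14. Of the 17 members below that level, F3 and F11 fell, and Thbd, Vwf and Anxa2 rose. The dimmest members had wild-type means near 4, about the lower quartile of all probe sets (4.27 to 4.46 by array), so that their changes are uncertain in size.

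**Figure D1:**
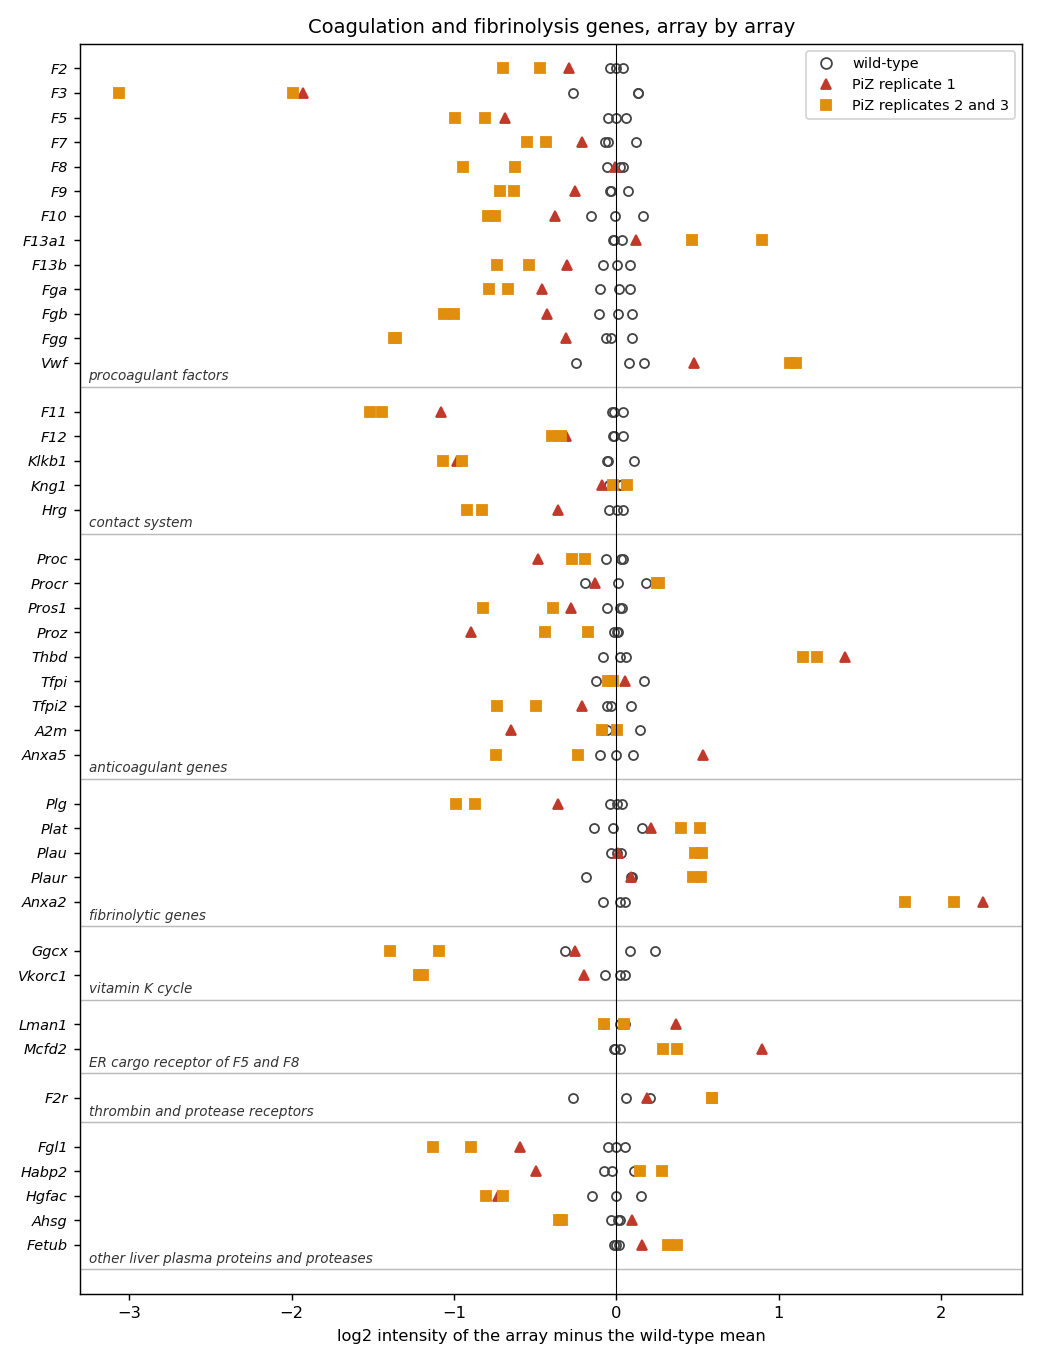
Log2 intensity of each array minus the wild-type mean (x axis) for the 42 measured genes, grouped by role. Open circles are wild-type arrays, triangles PiZ replicate 1 and squares PiZ replicates 2 and 3. In F3, F5, F11, Klkb1 and Hgfac all PiZ arrays lay well to the left of every wild-type array, while Fgg and Vkorc1 were much lower in PiZ replicates 2 and 3 than in PiZ replicate 1.

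The count of calls rested on few arrays. Without PiZ replicate 1, 24 members were lower and 10 higher, while 49.8% of all genes passed. The counts were 8 and 2 without PiZ replicate 2 (14.4% of all genes) and 7 and 2 without PiZ replicate 3 (11.6%). They were 6 and 2 without wild-type replicate 1 (8.92%), 6 and 3 without wild-type replicate 2 (10.2%), and 7 and 2 without wild-type replicate 3 (8.62%). F3, F5, F11, Klkb1, Fgl1, Hgfac, Thbd and Anxa2 passed in every one of these 6 fits. The other 12 called members passed without PiZ replicate 1, and their adjusted p with any other single array left out ran up to 0.154. Fga lost its call only without wild-type replicate 1 or 2 (limma adjusted p = 0.0575 and 0.0583), and Vwf passed also without wild-type replicate 2 (0.0479). Other scalings ended some calls too. F2, F12, F13b and Vkorc1 did not pass after cyclic loess (limma adjusted p = 0.0596, 0.191, 0.051 and 0.0504). F2, F12 and Vkorc1 did not pass after a further quantile normalization (0.0501, 0.12 and 0.0527), nor F2, F9, F12 and F13b with centring on reference genes (0.102, 0.0731, 0.285 and 0.0903). Vkorc1 also did not pass with every probe set tested (0.0555).

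**Figure D2:**
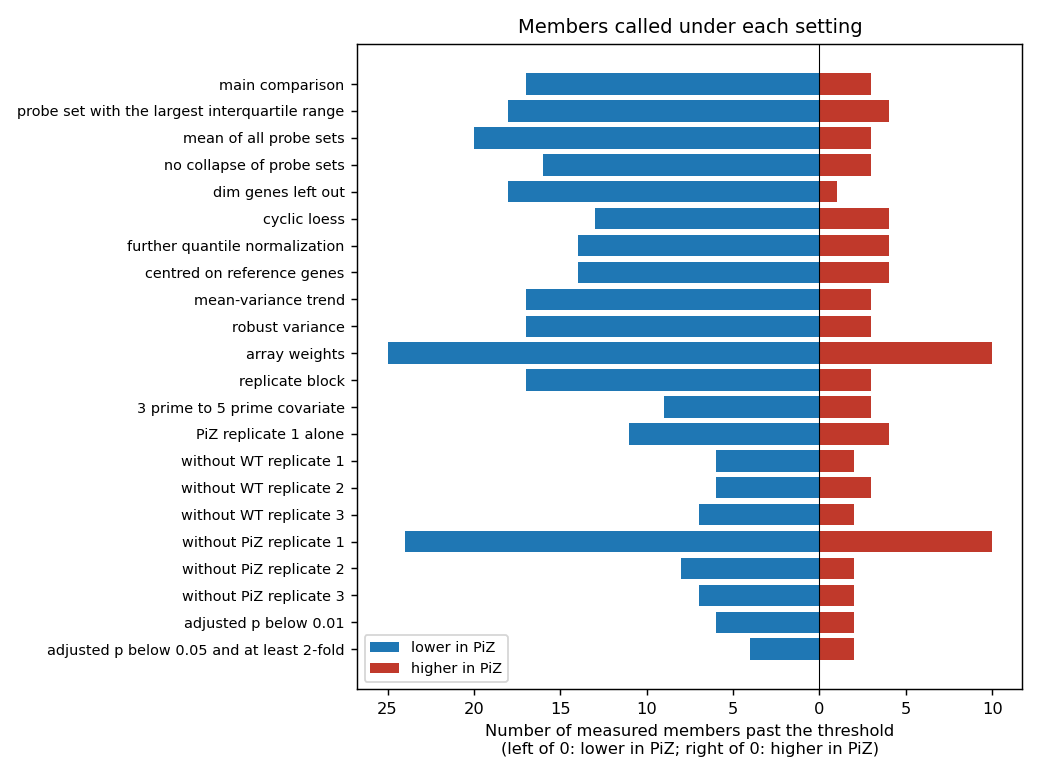
Number of measured members past the threshold (x axis; bars to the left of 0 are lower in PiZ, bars to the right higher) under the main comparison and each alternative (rows). Lower members outnumbered higher ones in every row, from 4 against 2 with an added 2-fold minimum to 25 against 10 with array weights. The array weights counted PiZ replicate 1 least (weight 0.17), so that row is close to the fit without this array.

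All 3 fibrinogen chains fell. Fga, Fgb and Fgg encode the alpha, beta and gamma chains of fibrinogen, the clot-forming protein, and are among the most abundant transcripts of liver. Their genes are direct neighbours in the RefSeq gene order (GRCm38.p6), with no protein-coding gene between them. The alpha chain gene Fga read 13.48, 13.54 and 13.36 in wild-type and 13.004, 12.68 and 12.79 in PiZ. It fell by 0.64 (SE 0.12, limma adjusted p = 0.0118). The beta chain gene Fgb read 14.44, 14.36 and 14.23 in wild-type and 13.92, 13.35 and 13.28 in PiZ, a fall by 0.83 (SE 0.18, adjusted p = 0.0172). The gamma chain gene Fgg read 14.26, 14.12 and 14.10 in wild-type and 13.85, 12.79 and 12.80 in PiZ and fell by 1.01 (SE 0.27, adjusted p = 0.0353). None of the 3 genes had overlapping groups, and in each the highest PiZ value was that of replicate 1. The difference of PiZ replicate 1 from the wild-type mean was -0.46 for Fga, -0.43 for Fgb and -0.31 for Fgg, against -0.73, -1.03 and -1.36 for the mean of replicates 2 and 3. Set alone against the wild-type arrays, PiZ replicate 1 passed for Fga (limma adjusted p = 0.0469) but not for Fgb (0.0638) or Fgg (0.125), and the 3′ over 5′ gap of the arrays moved with these values. With this gap as a covariate, as described below, the differences were -0.46 for Fga, -0.42 for Fgb and -0.29 for Fgg. The cause was not tested.

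The 250 bases before the start of the 3 fibrinogen genes, and of the neighbouring genes F11 and Klkb1 described below, are shown because these genes fell together with their neighbours. They are RefSeq sequences of build GRCm38.p6, written 5′ to 3′ on the strand of the gene. Capitals mark matches on either strand to the core of the site of the liver factor HNF1 (GTTAAT), to a C/EBP motif (TTGCNNAA) or to the core of the HNF4 motif (CAAAGTC). Fga lies at chr3:83025903-83026152, plus strand, Fgb at chr3:83049864-83050113, minus strand, Fgg at chr3:83007474-83007723, plus strand, F11 at chr8:45262032-45262281, minus strand, and Klkb1 at chr8:45294836-45295085, minus strand.
Fga: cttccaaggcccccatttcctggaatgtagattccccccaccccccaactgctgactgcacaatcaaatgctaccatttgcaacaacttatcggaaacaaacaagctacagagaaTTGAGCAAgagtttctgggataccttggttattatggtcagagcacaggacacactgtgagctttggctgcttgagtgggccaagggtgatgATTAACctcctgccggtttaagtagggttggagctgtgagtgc
Fgb: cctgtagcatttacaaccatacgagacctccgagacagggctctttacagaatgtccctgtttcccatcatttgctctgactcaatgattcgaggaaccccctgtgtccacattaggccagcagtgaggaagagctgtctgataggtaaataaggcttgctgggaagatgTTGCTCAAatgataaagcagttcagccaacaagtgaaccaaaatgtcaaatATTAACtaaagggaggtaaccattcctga
Fgg: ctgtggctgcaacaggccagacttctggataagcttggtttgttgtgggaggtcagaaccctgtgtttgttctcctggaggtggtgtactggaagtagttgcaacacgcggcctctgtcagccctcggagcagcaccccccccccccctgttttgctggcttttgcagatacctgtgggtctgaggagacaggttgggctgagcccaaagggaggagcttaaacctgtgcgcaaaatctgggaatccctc
F11: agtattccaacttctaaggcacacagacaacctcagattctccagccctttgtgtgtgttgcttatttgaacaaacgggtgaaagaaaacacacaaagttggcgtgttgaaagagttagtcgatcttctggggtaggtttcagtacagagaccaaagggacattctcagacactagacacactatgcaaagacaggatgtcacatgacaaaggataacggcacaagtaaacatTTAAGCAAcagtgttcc
Klkb1: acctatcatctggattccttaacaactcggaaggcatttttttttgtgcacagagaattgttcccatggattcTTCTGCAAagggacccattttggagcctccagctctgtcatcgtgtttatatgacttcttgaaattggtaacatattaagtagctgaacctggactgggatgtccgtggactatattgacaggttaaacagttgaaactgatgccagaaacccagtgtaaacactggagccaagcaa

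The Fga and Fgb windows each held 1 HNF1 core, with its first base at -43 and -29 relative to the gene start, and 1 C/EBP match, at -135 and -80. Fgg held no match to any of these letters. F11 and Klkb1 each held 1 C/EBP match, at -17 and -177. No HNF4 core was found in the 5 windows. Over the 32 measured members with a window in the RefSeq table, the HNF1 core was found in 7, the C/EBP motif in 11 and the HNF4 core in 2. Of all 32851 windows in the table, 6.43% held the HNF1 core, 9.56% the C/EBP motif and 3.84% the HNF4 core. The composite element of the stress factor ATF4 (TGATGNAA) was found in 1 member, Proz, and in 3.45% of all windows. The motifs do not overlap in these windows, and a match in a window is no measured binding site. Members were counted by gene, with a match in any window of the gene, whereas the shares were counted by window. The counts and the shares are therefore not like for like.

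Prothrombin, factor V, factor IX and factor X fell, and the factor VII gene did not pass. The thrombin precursor gene F2 read 13.82, 13.75 and 13.78 in wild-type and 13.49, 13.09 and 13.32 in PiZ, a fall by 0.49 (SE 0.13, limma adjusted p = 0.0327). F5, whose product is the cofactor of factor X, read 12.01, 12.07 and 11.96 in wild-type and 11.32, 11.20 and 11.02 in PiZ and fell by 0.83 (SE 0.12, adjusted p = 0.00414). The F5 groups were far apart, and its other probe set fell as well, by 0.58 (limma adjusted p = 0.00878 with every probe set tested). F9, the factor missing in haemophilia B, read 11.31, 11.20 and 11.21 in wild-type and 10.98, 10.52 and 10.61 in PiZ, a fall by 0.53 (SE 0.14, adjusted p = 0.0338). F10, the protease that makes thrombin, read 11.69, 11.84 and 12.02 in wild-type and 11.47, 11.11 and 11.06 in PiZ, a fall by 0.64 (SE 0.15, adjusted p = 0.0225). The other F10 probe sets read -0.61 and 0.03. F7, the protease that tissue factor activates, read 11.02, 11.003 and 11.19 in wild-type and 10.86, 10.64 and 10.52 in PiZ. Its groups did not overlap, but the difference of -0.40 did not pass (SE 0.13, adjusted p = 0.0583). In F2, F7, F9 and F10 the highest PiZ value was again that of replicate 1.

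Tissue factor had the largest difference of means of the 42 members, at a low level. F3, the membrane protein that starts clotting after injury, read 6.28, 5.88 and 6.28 in wild-type and 4.22, 4.16 and 3.09 in PiZ. It fell by 2.33 (SE 0.30, limma adjusted p = 0.00283), and every PiZ array was at least 1.67 below every wild-type array. The PiZ values lie below the lower quartile of the array, so the size of this fall is uncertain.

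Among the genes of factor XIII and of the endothelial factors, F13b fell and Vwf rose, while F13a1 and F8 did not pass. F13b, the carrier subunit of the fibrin-linking factor XIII, read 11.10, 10.93 and 11.02 in wild-type and 10.71, 10.48 and 10.28 in PiZ and fell by 0.52 (SE 0.14, limma adjusted p = 0.0309). F13a1, the catalytic subunit, which is made in macrophages and platelets, read 4.24, 4.29 and 4.23 in wild-type and 4.37, 5.15 and 4.72 in PiZ. Its difference of 0.49 did not pass (SE 0.19, adjusted p = 0.093), although its PiZ arrays lay above wild-type. Vwf, the platelet adhesion protein that carries factor VIII, read 5.64, 6.06 and 5.97 in wild-type and 6.37, 6.996 and 6.96 in PiZ and rose by 0.88 (SE 0.20, adjusted p = 0.0191). F8, the haemophilia A gene, read 7.03, 6.93 and 7.01 in wild-type and 6.98, 6.05 and 6.37 in PiZ. PiZ replicate 1 lay among the wild-type values of F8 while the other PiZ arrays were lower, and the difference of -0.52 did not pass (SE 0.22, adjusted p = 0.12). Of the 13 procoagulant genes, 9 fell, 1 rose and 3 did not pass, with a median difference of -0.53.

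Vwf and Thbd are expressed by endothelial cells, and Vwf also by platelets. Of 12 measured markers of sinusoidal endothelium, 0 passed with limma and 3 had an unadjusted p below 0.05, with a median difference of -0.0005. Their mean level was 7.44 to 7.54 in wild-type arrays and 7.49 to 7.51 in PiZ arrays. Of 7 platelet markers, with a median of 0.23, Gp9 passed (0.41, SE 0.12, limma adjusted p = 0.046). The mean level of the platelet markers was 5.54 to 5.58 in wild-type and 5.61 to 5.75 in PiZ. Of the platelet markers that did not pass, Itga2b, Gp1bb and Treml1 read 0.28, 0.27 and 0.23, and Pf4, Gp5 and Ppbp read -0.08, -0.07 and -0.02.

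F11 and Klkb1, direct neighbours in the genome, fell most in the contact system. F11, the protease that activates factor IX, read 9.35, 9.36 and 9.42 in wild-type and 8.30, 7.93 and 7.86 in PiZ. It fell by 1.35 (SE 0.14, limma adjusted p = 0.00127), and every PiZ array lay below every wild-type array. Klkb1, plasma prekallikrein, read 12.56, 12.40 and 12.39 in wild-type and 11.47, 11.50 and 11.38 in PiZ and fell by 1.00 (SE 0.11, adjusted p = 0.00148). In Klkb1 the PiZ arrays were alike, and PiZ replicate 1 alone gave -0.98 against -1.01 in the other PiZ arrays. F12, the factor that starts the contact system, read 12.01, 12.07 and 12.01 in wild-type and 11.72, 11.69 and 11.63 in PiZ, a small fall by 0.35 (SE 0.10, adjusted p = 0.0398). Hrg, a histidine-rich plasma protein that binds plasminogen and heparin, read 13.06, 12.97 and 13.02 in wild-type and 12.66, 12.19 and 12.10 in PiZ, a fall by 0.70 (SE 0.16, adjusted p = 0.0195).

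Kng1, the gene of the bradykinin precursor kininogen, did not follow. Its brightest probe set read 13.88, 13.96 and 13.95 in wild-type and 13.84, 13.995 and 13.91 in PiZ, with overlapping groups and a difference of -0.01 (SE 0.10, limma adjusted p = 0.924), which turned to 0.15 after cyclic loess and to 0.11 after a further quantile normalization. The other, dimmer probe set read 13.03 on average in wild-type and 12.60 in PiZ, a fall by 0.43 (limma adjusted p = 0.033 with every probe set tested). The 2 probe sets thus disagreed, and since mice have another, near-identical kininogen gene, both values are uncertain. Of the 5 genes of the contact list, which besides F11, Klkb1, F12 and Kng1 holds Hrg, 4 fell and 1 did not pass. The calls of F12 and Hrg were lost without any one array other than PiZ replicate 1 (adjusted p up to 0.139 and 0.0785). F12 also lost its call under the other scalings, with differences of -0.20 after cyclic loess, -0.24 after a further quantile normalization and -0.23 with centring on reference genes, whereas Hrg passed under all 3 (-0.55, -0.58 and -0.58).

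**Figure D3:**
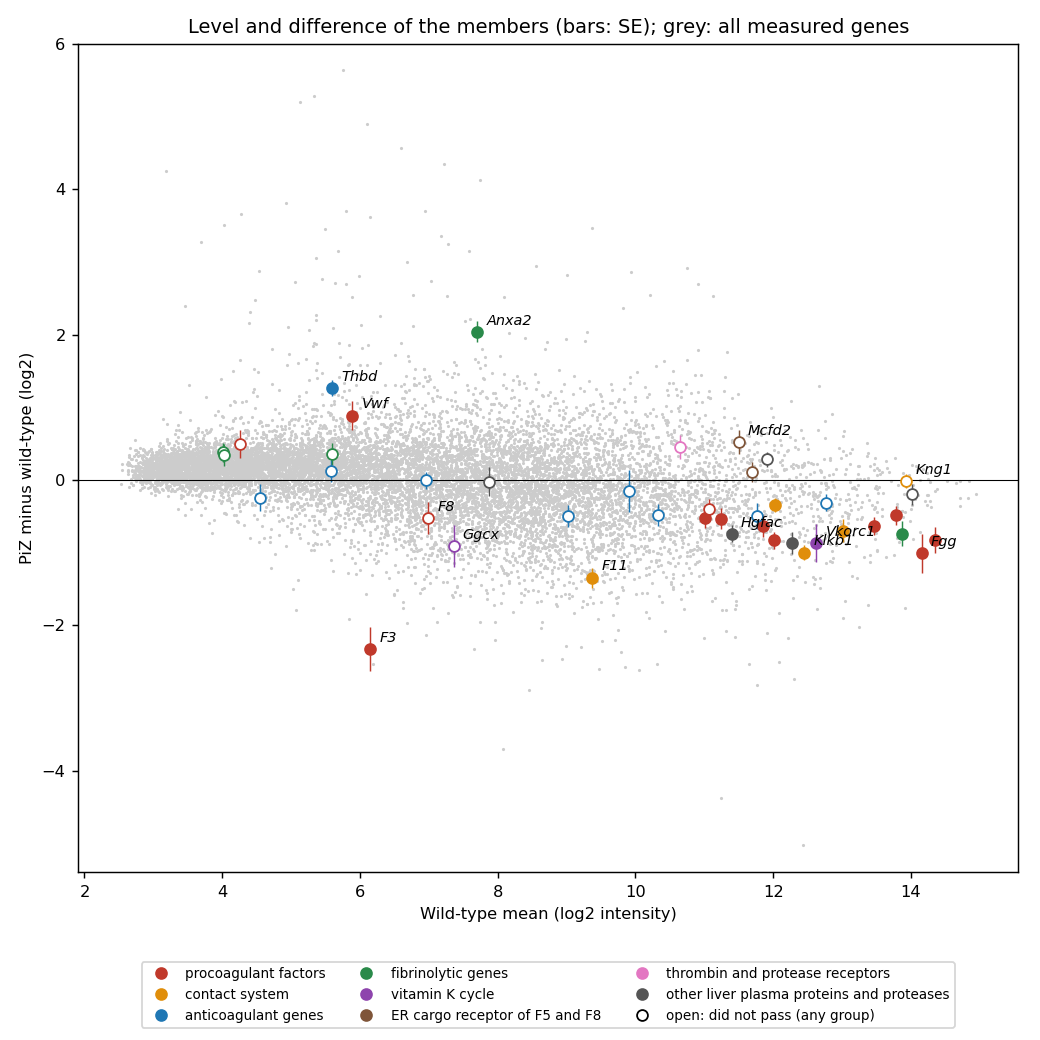
Wild-type mean (x axis, log2 intensity) against the difference PiZ minus wild-type (y axis, log2) of the 42 genes, coloured by role, with bars for the SE and open symbols for genes that did not pass. Grey points are all 12393 genes. Members with a wild-type mean above 10 lay mostly below 0, and the rises of Thbd, Vwf and Anxa2 came from genes with a wild-type mean below 8.

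Anticoagulant genes other than thrombomodulin did not pass. Thbd, the endothelial receptor that turns thrombin into an activator of protein C, read 5.51, 5.65 and 5.61 in wild-type and 7.0, 6.74 and 6.83 in PiZ. It rose by 1.26 (SE 0.11, limma adjusted p = 0.00085), with all PiZ arrays at least 1.09 above all wild-type arrays. Procr, the endothelial receptor for protein C, did not pass at 0.13 (SE 0.15), and its groups overlapped. Proc, the gene of protein C, read 12.70, 12.79 and 12.81 in wild-type and 12.29, 12.58 and 12.50 in PiZ. Its groups did not overlap, and its difference of -0.32 did not pass (SE 0.12, adjusted p = 0.0853). Pros1, the gene of the cofactor protein S, read 9.05, 9.04 and 8.96 in wild-type and 8.74, 8.19 and 8.62 in PiZ. Its difference of -0.50 missed the threshold (SE 0.15, adjusted p = 0.0527).

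Protein Z, which helps to inhibit factor Xa, had its lowest value in PiZ replicate 1. Proz read 11.77, 11.78 and 11.75 in wild-type and 10.87, 11.60 and 11.33 in PiZ, a difference of -0.50 that did not pass (SE 0.18, limma adjusted p = 0.0789). PiZ replicate 1 alone gave an adjusted p = 0.0047 for Proz and 0.0313 for Proc. Tfpi, the main inhibitor of the tissue factor pathway, was even between the groups (-0.01, SE 0.12) and changed sign after cyclic loess (0.0033) and a further quantile normalization (0.033). Its 3 probe sets lay between -0.08 and -0.01. The related inhibitor gene Tfpi2 read 10.30, 10.42 and 10.27 in wild-type and 10.12, 9.84 and 9.60 in PiZ, a difference of -0.48 (SE 0.15, adjusted p = 0.0534) that did not pass. A2m, a broad protease trap, was dim (wild-type mean 4.55) and read -0.25 (SE 0.18). Anxa5, a protein that covers phosphatidylserine on membranes, spread widely in PiZ, with 10.44 in replicate 1 but 9.16 and 9.67 in replicates 2 and 3, and the difference of -0.15 did not pass (SE 0.29, adjusted p = 0.726). Of 9 anticoagulant genes, 1 rose, 0 fell and 8 did not pass, with a median of -0.25.

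The 7 vitamin K dependent factors of the list are F2, F7, F9, F10, Proc, Pros1 and Proz. In all 7 every PiZ array lay below every wild-type array. This was so in 19.9% of all genes, and in 522 of the 1462 genes with a mean of at least 10. Of the 7, all but Pros1 had such a mean. The differences lay between -0.64 and -0.32, with a median of -0.50. F2, F9 and F10 passed. F7, F10 and Proz are consecutive genes in the RefSeq order and had differences of -0.40, -0.64 and -0.50. Of 3 other measured vitamin K dependent proteins, Gas6 (-0.10, SE 0.18), Mgp (0.18, SE 0.32) and Prrg2 (0.12, SE 0.13), 0 passed with limma and 0 had an unadjusted p below 0.05.

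The enzymes of the vitamin K cycle split by PiZ array. Ggcx, the gamma-carboxylase, read 7.44, 7.05 and 7.60 in wild-type and 7.10, 5.97 and 6.27 in PiZ. Its groups overlapped, and the difference of -0.92 did not pass (SE 0.29, limma adjusted p = 0.0558). Vkorc1, the warfarin-sensitive reductase that recycles vitamin K, read 12.68, 12.55 and 12.65 in wild-type and 12.42, 11.41 and 11.44 in PiZ and fell by 0.87 (SE 0.26, adjusted p = 0.048). In both genes the change was small in PiZ replicate 1 (-0.26 and -0.20) and more than 1 unit in replicates 2 and 3 (-1.25 and -1.20). Without PiZ replicate 1 both passed (adjusted p = 0.00109 and 0.000111), and in PiZ replicate 1 alone neither did (0.454 and 0.263). The 3′ over 5′ gap of the arrays moved with both genes. With this gap as a covariate, as described below, the differences were -0.16 for Ggcx and -0.18 for Vkorc1. The cause was not tested.

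The cargo receptor for factors V and VIII did not pass. Mcfd2, its soluble subunit, read 11.48, 11.48 and 11.52 in wild-type and 12.39, 11.78 and 11.87 in PiZ. All PiZ arrays lay above wild-type, yet the difference of 0.52 did not pass (SE 0.17, limma adjusted p = 0.0589). It passed after cyclic loess, after a further quantile normalization and with centring on reference genes, settings that ended other calls as given above, as well as without PiZ replicate 1 (adjusted p = 0.0202) and in PiZ replicate 1 alone (0.0047). Lman1, the membrane lectin, read 11.61, 11.74 and 11.71 in wild-type and 12.05, 11.73 and 11.61 in PiZ, with overlapping groups and a difference of 0.11 (SE 0.14, adjusted p = 0.563). The 4 probe sets of Lman1 read 0.52, -0.03, -0.07 and 0.11, and the first of these passed (limma adjusted p = 0.0279 with every probe set tested).

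In the plasminogen system the zymogen fell and a cell surface receptor rose. Plg, the precursor of plasmin, read 13.90, 13.87 and 13.83 in wild-type and 13.50, 12.997 and 12.88 in PiZ, a fall by 0.74 (SE 0.17, limma adjusted p = 0.0204). Anxa2, which binds plasminogen and its activator on cell surfaces together with S100a10, read 7.76, 7.73 and 7.62 in wild-type and 9.96, 9.48 and 9.79 in PiZ. It rose by 2.04 (SE 0.14, adjusted p = 0.000237), and every PiZ array was at least 1.72 above every wild-type array. Another Anxa2 probe set rose by 1.22 (limma adjusted p = 0.00656 with every probe set tested), and the third, near the bottom of the range at a wild-type mean of 3.16, read 0.11. S100a10 itself read 11.13, 11.09 and 10.63 in wild-type and 12.27, 12.35 and 12.56 in PiZ and rose by 1.44 (SE 0.16, adjusted p = 0.00182), while its dimmer probe set read 0.59.

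The plasminogen activator genes were dim and did not pass. Plat (tissue activator, 0.38, SE 0.13), Plau (urokinase, 0.34, SE 0.15) and the urokinase receptor Plaur (0.36, SE 0.15) had wild-type means of 4.01, 4.02 and 5.59 and limma adjusted p of 0.0714, 0.142 and 0.12. All 3 passed without PiZ replicate 1 (adjusted p = 0.0142, 0.00332 and 0.0107). The lower quartile of the arrays was also higher in PiZ replicates 2 and 3 (4.46 and 4.45) than in wild-type (4.27 to 4.32), and its part was not tested. Of the 5 measured fibrinolytic genes, 1 rose, 1 fell and 3 did not pass.

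F2r, the thrombin receptor, read 10.85, 10.71 and 10.38 in wild-type and 10.83, 11.23 and 11.23 in PiZ. Its groups overlapped, and the difference of 0.45 did not pass (SE 0.17, limma adjusted p = 0.0867). The second F2r probe set read -0.07.

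Other plasma proteins of the list also went separate ways. Fgl1, a fibrinogen-like protein of hepatocytes, read 12.28, 12.33 and 12.23 in wild-type and 11.69, 11.38 and 11.15 in PiZ and fell by 0.87 (SE 0.15, limma adjusted p = 0.00766). Hgfac, the activator of hepatocyte growth factor, a protease related to factor XII, read 11.25, 11.55 and 11.40 in wild-type and 10.67, 10.70 and 10.60 in PiZ and fell by 0.74 (SE 0.12, adjusted p = 0.00589). Both passed with every array left out in turn. Habp2, the factor VII activating protease, did not pass (-0.02, SE 0.20), and its PiZ values lay below wild-type in replicate 1 (7.37) and above in replicates 2 and 3 (8.15 and 8.01). Its difference turned to 0.05 after cyclic loess and to 0.08 after a further quantile normalization.

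Ahsg, Fetub and Hrg are consecutive genes in the RefSeq order, followed by Kng1 after 1 other protein-coding gene, and they encode related cystatin-type plasma proteins. Hrg fell by 0.70, whereas Ahsg read -0.20 (SE 0.14, limma adjusted p = 0.335), Fetub 0.28 (SE 0.11, adjusted p = 0.0887) and Kng1 -0.01. Fetub was higher in every PiZ array (12.07, 12.28 and 12.23) than in any wild-type array (at most 11.93). Neighbours in this row therefore had differences of either sign, unlike the fibrinogen genes and the F11 and Klkb1 pair. The differences between neighbouring genes were not tested.

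PiZ replicate 1, whose control transcripts were as in wild-type, showed part of the pattern. Compared alone with the 3 wild-type arrays, it gave 11 lower and 4 higher members, against 9.80% lower and 8.83% higher of all genes. F3, F5, Fga, F11, Klkb1, Thbd, Anxa2, Fgl1 and Hgfac, 9 of the 20 called members, passed there too, and A2m, Anxa5, Habp2, Mcfd2, Proc and Proz passed in addition. Of these, Anxa5 and Mcfd2 were higher. Anxa5 read 0.53 in PiZ replicate 1, yet without that array it passed as lower (-0.49, limma adjusted p = 0.0352). The median of the 42 members was -0.26 in PiZ replicate 1 and -0.49 in the mean of replicates 2 and 3. It was -0.30 and -0.73 for the procoagulant genes and -0.36 and -0.87 for the contact list, but -0.21 and -0.23 for the anticoagulant genes. Both contact medians were the values of Hrg. F11, Klkb1, F12 and Kng1 read -1.08, -0.98, -0.31 and -0.09 in PiZ replicate 1. In the mean of replicates 2 and 3 they read -1.48, -1.01, -0.37 and 0.02. The fit of PiZ replicate 1 alone takes it to vary as the wild-type arrays do, and it shares those arrays with the main comparison.

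**Figure D4:**
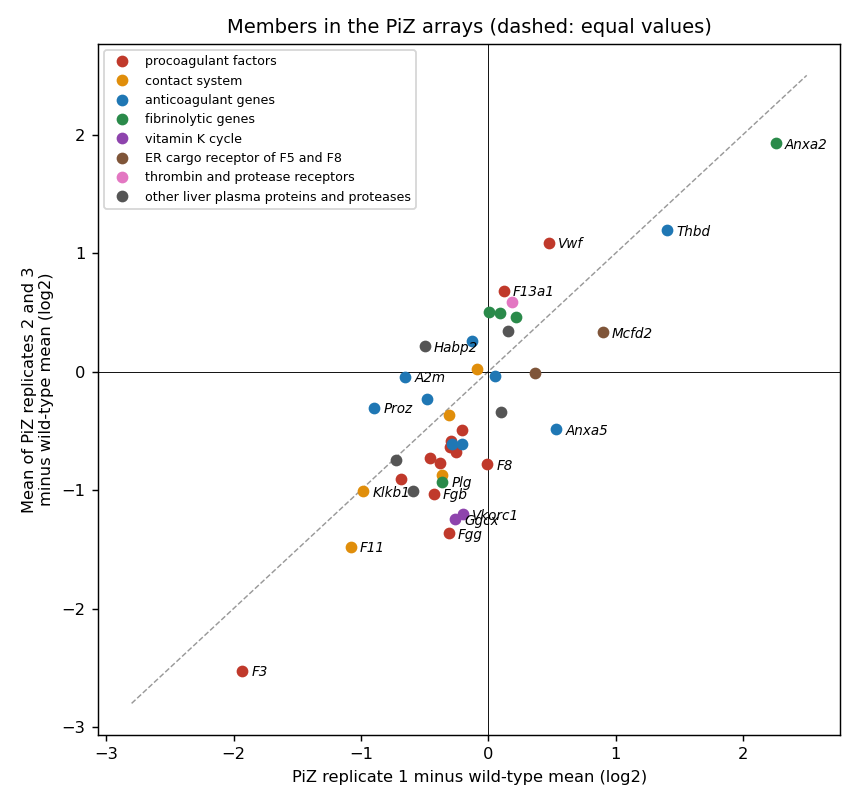
Difference of PiZ replicate 1 from the wild-type mean (x axis, log2) against that of the mean of PiZ replicates 2 and 3 (y axis, log2) for the 42 genes, coloured by role, with a dashed line of equal values. Klkb1, Thbd and Anxa2 lay near the line, whereas Fgg, Ggcx and Vkorc1 lay well below it, and both axes share the wild-type arrays.

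When the 3′ over 5′ gap of each array entered the fit as a covariate, 9 members were lower and 3 higher, while 14.6% of all genes passed. F3, F5, F11, Klkb1, Fgl1, Hgfac, Thbd and Anxa2 kept their calls. F2, F9, F10, F12, F13b, Fga, Fgb, Fgg, Hrg, Plg, Vkorc1 and Vwf lost theirs, and A2m, Mcfd2, Proc and Proz gained one. The differences behind the lost calls shrank unequally. F12 went from -0.35 to -0.32 and Fga from -0.64 to -0.46. Fgb went from -0.83 to -0.42, Fgg from -1.01 to -0.29, Vkorc1 from -0.87 to -0.18 and Vwf from 0.88 to 0.42. The other 6 lay between -0.39 and -0.23 with the covariate. The covariate is high in 2 of the 3 PiZ arrays and in 0 wild-type arrays, so it can only be told apart from the genotype through PiZ replicate 1.

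Plasma inhibitors of the same proteases moved in part with the clotting genes. Of 7 measured serpins of coagulation and fibrinolysis, 3 fell, 0 rose and 4 did not pass, with a median of -0.27. The C1 inhibitor Serping1, which also inhibits the contact proteases, read 13.16, 13.06 and 13.09 in wild-type and 12.39, 11.73 and 11.79 in PiZ (difference -1.13, SE 0.18, limma adjusted p = 0.00633). The antiplasmin gene Serpinf2 read 12.27, 12.17 and 11.99 in wild-type and 11.65, 11.17 and 11.08 in PiZ (difference -0.84, SE 0.17, adjusted p = 0.0132). Heparin cofactor Serpind1 read 11.64, 11.43 and 11.57 in wild-type and 11.24, 10.21 and 10.12 in PiZ (difference -1.02, SE 0.28, adjusted p = 0.0367), with most of the gap in PiZ replicates 2 and 3. Antithrombin, Serpinc1, the main plasma inhibitor of thrombin, did not pass (-0.27, SE 0.13, adjusted p = 0.151), and is named for its role after its value was seen.

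Other ligands of the plasmin, thrombin and matrix system changed in both directions. Of 15 measured, 6 fell, 2 rose and 7 did not pass, with a median of -0.35. Fibronectin Fn1 fell by 0.86 (SE 0.17, limma adjusted p = 0.0116) and the sulfhydryl oxidase Qsox1 by 1.02 (SE 0.18, adjusted p = 0.00791). Both were lower by less in PiZ replicate 1 (-0.52 and -0.62) than in the mean of replicates 2 and 3 (-1.03 and -1.22). The 4 largest changes among those that passed also took in S100a10, given above, and the matrix linker Itih3, which fell by 0.58 (SE 0.13, adjusted p = 0.021).

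Listed regulators of liver clotting genes, not all of them transcription factors, changed in both directions. Of 19 measured regulators, 5 fell, 3 rose and 11 did not pass, with a median of -0.01, against 12.3% lower and 11.3% higher over all genes. Onecut1 fell by 2.21 (SE 0.55, limma adjusted p = 0.0269), Foxa1 by 2.20 (SE 0.16), Foxa2 by 1.27 (SE 0.21), and Cebpd rose by 1.11 (SE 0.24, adjusted p = 0.0167). Onecut1 read -3.54 in PiZ replicate 1 against -1.55 in the mean of replicates 2 and 3, and Cebpd 1.67 against 0.83.

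Markers of the cell types that could add these transcripts were measured as well. Of 11 hepatocyte markers, Arg1 (-0.70, SE 0.16) and Fabp1 (-0.36, SE 0.10) fell and 9 did not pass, with a median of -0.25, and their mean level was 14.36 to 14.39 in wild-type and 14.08 to 14.26 in PiZ. The hepatocyte list leaned down, with a difference below 0 in 10 of the 11 and an unadjusted limma p below 0.05 in 6. In 8 of the 11 every PiZ array lay below every wild-type array, and in 1 every PiZ array lay above. Over all genes these shares were 19.9% and 24.9%. Of 10 macrophage markers, 3 rose and 1 fell (median 0.07, mean level 8.98 to 9.12 in wild-type and 9.03 to 9.36 in PiZ). In the neutrophil list S100a8 and S100a9 rose and 6 others did not pass. All 8 genes of that list had a difference above 0, with a median of 0.29, and 4 of them had an unadjusted p below 0.05. Their mean level was 4.37 to 4.67 in wild-type and 5.25 to 5.40 in PiZ. Ltf (0.40, SE 0.13) and Cxcr2 (0.36, SE 0.12) had every PiZ array above wild-type without passing, and the granule genes Mpo (0.04, SE 0.12) and Elane (0.07, SE 0.10) had overlapping groups. Stellate cell (1 rose and 1 fell of 10), biliary (0 of 6) and erythroid markers (0 of 4) had medians of 0.16, 0.37 and 0.02 with limma, and 2 biliary and 0 erythroid markers had an unadjusted p below 0.05. The part of these cell types in the results was not tested.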

How the data were processed

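RNA from the livers of 6 mice, 3 of them PiZ and 3 wild-type, was labelled with biotin and read on one-colour Affymetrix arrays, 1 per mouse. The authors deposited log2 intensities, 1 per probe set. Per the submitters' processing notes they were made by RMA in the affy package. The chip definition and the versions and filters used were not given in the sources used here. RMA makes the arrays' distributions alike, so it would hide a shift common to most genes. That the scale is log2 was read from the range of the values (2.3 to 14.98).

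Of 22690 probe sets, 20380 named 1 gene in the platform annotation, 691 several and 1555 none, besides 64 controls. No symbol needed an update through the RefSeq table (20351 matched by identifier). Each of 12393 genes was read from its brightest probe set, by the mean of the 6 arrays. No filter on dim values and no detection call was used. The test was that of limma 3.58.1 (lmFit and eBayes, two-sided, no covariate, R 4.3.3), run over all genes, and Python 3.11.15 was used for tables and figures. On simulated data of PiZ against wild-type (12393 genes, 200 changed), the fit found 73.0% of genes changed by 1 and 92.0% of those changed by 2 on the log2 scale, with 8 false calls among 173. The simulated noise was independent and had the same spread in both groups. In the data PiZ arrays could spread more, for Fgg with an SD of 0.61 against 0.09 in wild-type. The simulated rates therefore need not hold for these data. The number of arrays limits the precision.

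Every measured member is named. Array values are given for members that passed and for F2, F5, F8, F9, F11, Fga, Fgb, Fgg, Proc, Pros1, Plg, Ggcx, Lman1 and Mcfd2. Those of F7, F13a1, Kng1, Proz, Tfpi2 and F2r, outside this rule, were added after their values were seen. Up to 4 changed genes of each other list are named by size, and cell markers and unchanged genes of these lists where a count rests on them. The members, lists, alternatives and this rule were chosen with earlier results of these data known. The alternatives changed the probe set, the dim-gene filter, the scaling, the variance model, array weights, a replicate block, the RNA quality covariate, the arrays used and the threshold.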

Additional observations from a re-analysis of the deposited data

How the results depend on the processing

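Of 17 lower and 3 higher members, 20 kept their direction in all 19 alternative fits that tested them, and F3, F5, F11, Klkb1, Fgl1, Hgfac, Thbd and Anxa2 also kept their call in each of those. The number of lower members was 9 with the 3′ to 5′ covariate, 11 in PiZ replicate 1 alone, 6 at an adjusted p below 0.01 and 4 with at least a 2-fold difference as well, and ran from 6 to 24 with single arrays left out (6 without wild-type replicate 1, 24 without PiZ replicate 1). The number of higher members was 1 without dim genes, where Thbd and Vwf were not tested, and 10 with array weights, and ran from 2 to 10 with single arrays left out. Over all genes, 6175 passed without PiZ replicate 1 and 6520 with array weights, against 2921. The array weights were 0.17, 0.55 and 1.91 for PiZ replicates 1, 2 and 3, and 1.65, 1.90 and 1.75 for the wild-type arrays. They thus rested least on the PiZ array whose control transcripts were as in wild-type. Fits without a single array have fewer samples; other causes of these changes were not tested.

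Members that changed sign had not passed with all arrays. After cyclic loess Kng1, Tfpi and Habp2 read 0.15, 0.0033 and 0.046, after a further quantile normalization 0.11, 0.033 and 0.084, and with centring on reference genes, which moved the median of all genes by 0.12, they read 0.11, 0.11 and 0.097. With the covariate F8, Procr, Tfpi, Anxa5, Plau and Ahsg read 0.036, -0.13, 0.016, 0.60, -0.0046 and 0.11. In PiZ replicate 1 alone Procr, Tfpi, Anxa5 and Ahsg read -0.13, 0.053, 0.53 and 0.099. With array weights Lman1 and Habp2 read -0.024 and 0.14. With single arrays left out, Kng1 ran from -0.055 to 0.021, Tfpi from -0.072 to 0.076, Anxa5 from -0.49 to 0.15, Lman1 from -0.015 to 0.21 and Habp2 from -0.18 to 0.21. The cause of these changes was not tested.

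With the replicate number of the titles as a block, 17 members were lower and 3 higher, with F12 lost and Ggcx gained. Deviations from the group means of arrays with the same number correlated at 0.26, 0.29 and -0.03 across genes. For arrays with different numbers the correlations ran from -0.365 to 0.251. With 3 arrays a group, these values cannot decide whether the numbers pair the mice. Dim probe sets, near the array's background, limit what can be said of Plat, Plau, A2m and F13a1.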
